A study of Homo sapiens with 12 samples.

Results

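The β-catenin destruction complex was examined in Ribo-seq libraries of HCT116 cells through 10 genes chosen by symbol: *AXIN1*, *AXIN2*, *APC* and *AMER1* for the scaffolds, *GSK3A*, *GSK3B* and *CSNK1A1* for the kinases, *CTNNB1* for the substrate, and *BTRC* and *FBXW11* for the substrate receptors of the ubiquitin ligase. All 10 were among the 15798 genes of the table, and all 10 were among the 10663 genes tested. HCT116 is a human colorectal cancer line that carries an activating *CTNNB1* mutation at a CK1 phosphorylation site. Cells received 100 nM trametinib, an inhibitor of the kinases MEK1/2, or the solvent DMSO for 24 h. For each treatment 3 replicates were profiled, each with an input library of randomly fragmented mRNA and a library of ribosome footprints, the mRNA pieces that a ribosome shields from RNase I, giving 12 libraries in 4 groups. All cells also received cycloheximide shortly before lysis. The labels name the samples only as replicates, while a supplementary legend of the study calls the 3 replicates behind its fold changes biological. The p-values measure the spread between these samples, and the labels do not tell how much of it is technical.

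The destruction complex keeps the Wnt effector β-catenin scarce. AXIN1 or its homologue AXIN2 holds APC, the kinases and β-catenin together, casein kinase 1α (encoded by *CSNK1A1*) primes β-catenin, GSK3 extends the phosphorylation, and β-TrCP (encoded by *BTRC* and *FBXW11*) then recruits the ligase that marks it for the proteasome. AXIN1 is thought to be scarce relative to its partners, and *AXIN2* is itself a transcriptional target of β-catenin, so that the pathway feeds back on its own scaffold.

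Input libraries held 2276693 to 2845568 counts in reading frames and footprint libraries 10127477 to 19181588. The ERK output genes *DUSP6*, *SPRY4*, *ETV5* and *EPHA2* were called lower in trametinib in both input and footprints, 4 of 4. Over all genes, 16.8% were called lower in input and 25.6% in footprints. *DUSP6*, *SPRY4* and *ETV5* passed the filter on low counts through their DMSO input libraries alone. The epithelial markers *EPCAM*, *CDH1*, *KRT8*, *KRT18* and *CDX2* were counted in every library. Of them 2 rose in both assays, *CDH1* (log2 0.93 in input and 1.07 in footprints) and *KRT8* (0.69 in each), while *EPCAM* rose in footprints (0.44). Over all genes, 15.4% were called higher in input and 23.9% in footprints. Of 5 markers of other cell types, *PTPRC*, *PECAM1* and *CD3E* had between 0 and 3 counts in any library, whereas the collagen gene *COL3A1* was higher in trametinib, with 0 to 1 counts in DMSO input and 25 to 42 in trametinib input. *COL3A1* passed the filter on low counts through trametinib alone. The collagen gene *COL1A1*, at 14 to 36 counts in input, was not called (-0.20 in input and 0.23 in footprints, edgeR adjusted p = 0.720 and 0.332). The summed normalized count of these 5 genes ran from 47.5 to 84.3 in DMSO input and from 123 to 154 in trametinib input, and the part of these markers in the results was not tested. The input and footprint libraries of DMSO replicate 1 deviated from their groups together (Pearson's r 0.816 across 7669 genes that are not independent points), and member values that these libraries move are also given without them.

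Ribosome density can change when an mRNA has a regulatory 5′ end, and mRNAs that begin with a C followed by a run of pyrimidines (5′TOP mRNAs, among them those of ribosomal proteins) are the textbook targets of mTOR control. The first transcribed bases are therefore shown for *AXIN1*, and for *CSNK1A1*, *APC* and *GSK3B*, which were called higher in footprints. RefSeq promoter windows (GRCh38.p14) were matched for 8 members with 10 entries in all, and not for *AXIN2* and *BTRC*. Each line gives 30 bases, 5′ to 3′ on the gene's strand, and capitals mark the first 5 transcribed bases. The *AXIN1* window is chr16:352709-352738 on the minus strand. Those of *CSNK1A1* are chr5:149550351-149550380 (start 1) and chr5:149551425-149551454 (start 2), both minus, those of *APC* are chr5:112707483-112707512 (start 1) and chr5:112737870-112737899 (start 2), both plus, and that of *GSK3B* is chr3:120094433-120094462, minus.
AXIN1: cggccccgcccccgcACTTCcggacgccgc
CSNK1A1 start 1: gtacggatttcgtcaCTACCccctgaagag
CSNK1A1 start 2: gcccgagatccctttCCCAGagtgctctgc
APC start 1: acctctcacgcatgcGCATTgtagtcttcc
APC start 2: gcccgccagggtgtcACTGGagacagaatg
GSK3B: cagacagcgctcctcACACAgagcagctcc
A start of C followed by 4 bases that are each C or T was found in 0 of the 10 member entries. It was found in 1429 of 35116 entries of the same length (4.07%) and in 44 of 81 entries of ribosomal protein genes (54.3%). The match was read on the transcribed strand at the annotated start alone, and says only which letters stand there.

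Of the 10 members, MEK1/2 inhibition was followed by a higher level of 1 mRNA and a lower level of 1 in input, by higher footprints of 4 and by a higher ribosome density of 1. *AXIN2* rose and *CSNK1A1* fell in input. *AXIN2*, *APC*, *CSNK1A1* and *GSK3B* rose in footprints, and *CSNK1A1* rose in ribosome density, which is the change in footprints relative to the change in input. A gene was called at an adjusted p under 0.05 in edgeR's quasi-likelihood test, with Benjamini-Hochberg adjustment over all genes tested. By this rule 32.1% of all genes were called in input, 49.4% in footprints and 0.91% in ribosome density. In either direction, the 2 members called in input and the 4 in footprints were thus no larger a share than that of all genes. The 4 footprint calls were all higher, beside 23.9% of all genes called higher and 25.6% called lower. Whether the members differ from all genes in this was not tested. At an unadjusted p under 0.05 there were 3, 5 and 2 members in the 3 comparisons, beside 42.9%, 56.3% and 8.81% of all genes. The median log2 change of the members was 0.13 in input, 0.16 in footprints and 0.04 in density, beside -0.0015, -0.013 and 0.07 over all genes tested. These changes are relative to the bulk of mRNAs in each library, and a shift in translation common to all mRNAs would not show in them.

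**Figure D1:**
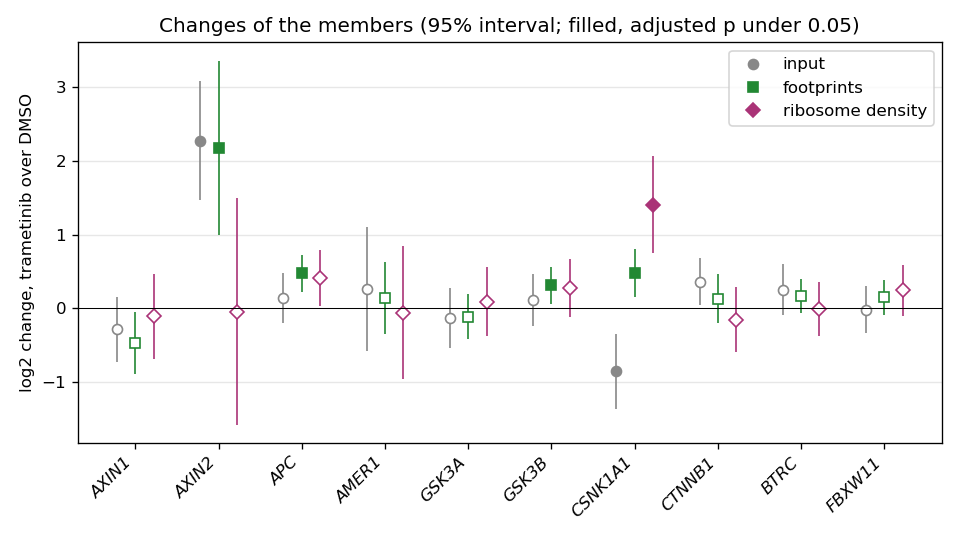
Log2 change of trametinib over DMSO (vertical axis) for the 10 members in input, footprints and ribosome density, with 95% intervals; filled symbols have an adjusted p under 0.05. *CSNK1A1* is the only member whose filled input and footprint symbols lie on opposite sides of 0, at -0.85 and 0.48, and *AXIN1* lies below 0 in all 3 with no filled symbol.

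*AXIN1*, the scaffold that other members bind to (chr16:287440-352723, minus strand, GRCh38), had normalized counts of 237, 164 and 190 in DMSO input and of 147, 170 and 167 in trametinib input. The lowest DMSO library lay within the trametinib range, so the groups overlapped. Its footprints were 62.6, 67.7 and 67.8 in DMSO and 36.9, 57.1 and 49.9 in trametinib, from between 104 and 184 raw counts a library. Here every trametinib library was below every DMSO library, as for 59.6% of all genes in either direction (46.6% in input). The mean footprint level in trametinib was 72.6% of that in DMSO and the mean input level 81.8%. Neither change passed the test across all genes: the log2 change was -0.28 (SE 0.203, adjusted p = 0.313) in input and -0.47 (SE 0.184, adjusted p = 0.0632) in footprints. The input change was -0.13 without DMSO input replicate 1 (adjusted p = 0.684) and -0.40 without DMSO input replicate 2, which was the lowest DMSO library. Without DMSO footprints replicate 1 the footprint change was -0.50 with an adjusted p of 0.0327, and without trametinib footprints replicate 2 it was -0.61 with an adjusted p of 0.0462. It was -0.30 without trametinib footprints replicate 1 (adjusted p = 0.239) and -0.29 when scaled to library totals (adjusted p = 0.219).

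The ribosome density of *AXIN1*, footprint CPM over input CPM (CPM, counts scaled to the TMM-adjusted library total) of the same replicate number, was 0.259, 0.401 and 0.349 in DMSO and 0.259, 0.342 and 0.307 in trametinib. The 2 ranges overlapped, and the log2 change in density was -0.11, with a 95% interval from -0.68 to 0.47 (edgeR, adjusted p = 0.967). It was -0.33 without both libraries of DMSO replicate 1 (adjusted p = 0.771). Libraries of one number were taken as one dish from the methods of the study, since the labels give only the number, and r between the deviations of such a pair was 0.816, 0.181 and 0.343 for the DMSO numbers but 0.141, 0.0803 and -0.122 for the trametinib numbers. A fall in density to 0.624 of the DMSO value, or a rise to 1.38 of it, lies at the edge of that interval. In DMSO the density of *AXIN1* stood at percentile 7.06 of the 10663 genes, and in trametinib at percentile 6.38.

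*AXIN2*, the inducible homologue (chr17:65528563-65561648, minus strand), had 4, 11 and 12 raw counts in DMSO input and 34, 41 and 41 in trametinib input. In footprints it had 3, 18 and 25 raw counts in DMSO and 79, 82 and 75 in trametinib. The groups did not overlap in either assay, and replicate 1 was the lowest DMSO library in both. *AXIN2* passed the filter on low counts through its trametinib input libraries. Its log2 change was 2.28 (SE 0.373, edgeR adjusted p = 0.000345) in input and 2.18 (SE 0.520, adjusted p = 0.00678) in footprints. Without DMSO replicate 1 these changes were 1.91 and 1.60, with adjusted p-values of 0.00017 and 0.00021. Its density was 0.126, 0.479 and 0.321 in DMSO and 0.306, 0.325 and 0.348 in trametinib, and the change of -0.04 had an interval from -1.57 to 1.49, too wide at these counts to place a change. Without both libraries of DMSO replicate 1 it was -0.27.

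The 2 homologues can be set against each other within a library, where the scaling cancels. *AXIN2* contributed 3.51%, 12.6% and 12.9% of the reads of both AXIN genes in DMSO input and 35.8%, 38.3% and 38.7% in trametinib input. In footprints the share was 1.73%, 14.8% and 12.0% in DMSO and 39.7%, 37.1% and 41.7% in trametinib. The lowest trametinib share was above the highest DMSO share in both assays, and the 95% Wilson intervals of those libraries did not overlap either, 26.9 to 45.8% against 7.54 to 21.2% in input and 31.0 to 43.6% against 9.54 to 22.1% in footprints. These intervals cover counting error only. The mean share was 9.69% ± 5.35 in DMSO and 37.6% ± 1.57 in trametinib input (SD, n = 3, exact two-sided permutation p = 0.1, the smallest that 3 against 3 can give), and 9.48% ± 6.85 and 39.5% ± 2.29 in footprints (SD, n = 3, exact permutation p = 0.1). The difference of 27.9 percentage points in input was 24.8 without DMSO replicate 1, and that of 30.0 in footprints was 26.1.

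**Figure D2:**
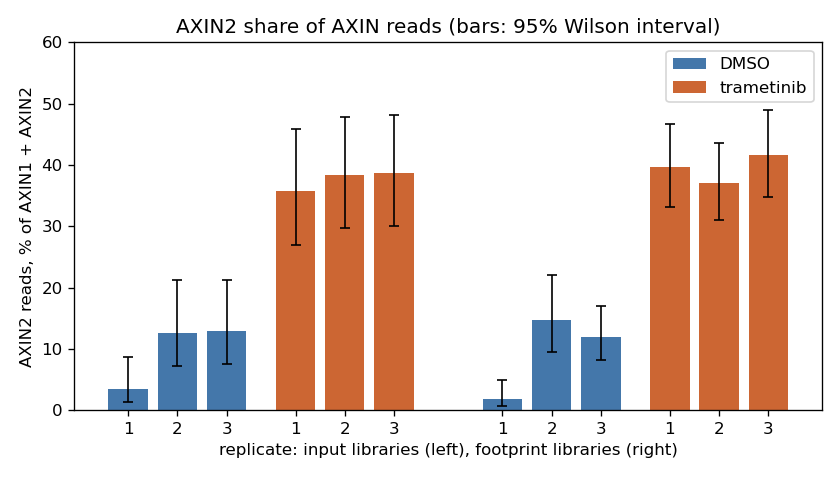
*AXIN2* reads as a percentage of *AXIN1* plus *AXIN2* reads (vertical axis) in each of the 12 libraries, by replicate, with 95% Wilson intervals. The 6 DMSO libraries lie between 1.73% and 14.8% and the 6 trametinib libraries between 35.8% and 41.7%.

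The sum of both AXIN genes did not separate the treatments. In input the summed normalized counts were 246, 188 and 218 in DMSO and 229, 275 and 273 in trametinib (exact permutation p = 0.2, n = 3). In footprints they were 63.7, 79.5 and 77.0 in DMSO and 61.1, 90.8 and 85.6 in trametinib (exact permutation p = 0.6, n = 3).

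*APC*, the tumour suppressor scaffold (chr5:112707518-112846239, plus strand), had normalized counts of 524, 618 and 464 in DMSO input and 631, 571 and 560 in trametinib input, ranges that overlapped. Its footprints were 206, 229 and 211 in DMSO and 323, 276 and 298 in trametinib, with no overlap. The footprint change was 0.48 (SE 0.111, edgeR adjusted p = 0.00710), or 1.39-fold with a 95% interval from 1.17 to 1.66. Without trametinib footprints replicate 1 it was 0.42 and the adjusted p 0.0513. In input the change was 0.14 (SE 0.159, adjusted p = 0.528). Its density was 0.385, 0.359 and 0.445 in DMSO and 0.529, 0.491 and 0.546 in trametinib, again without overlap, yet the change in density of 0.41 did not pass the correction (unadjusted p = 0.0364, adjusted p = 0.515). *APC* shares 230 coding bases with another annotated protein-coding gene of the same strand, so part of its reading frame may not have been counted.

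*AMER1*, a membrane scaffold that binds APC (chrX:64185117-64205708, minus strand), was counted at between 8 and 17 reads in any input library and between 18 and 50 in any footprint library. The log2 change was 0.27 in input (95% interval -0.58 to 1.11) and 0.14 in footprints (-0.35 to 0.63), and 0.040 and 0.048 without DMSO replicate 1, so a change was not detectable at this depth.

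Among the kinases, *CSNK1A1* fell in input and rose in footprints. Its input levels, as normalized counts (chr5:149492982-149551471, minus strand), were 1225, 689 and 939 in DMSO and 676, 381 and 517 in trametinib. The highest trametinib library was just below the lowest DMSO library, and in both treatments replicate 1 was highest and replicate 2 lowest. Its footprints were 1811, 1268 and 1624 in DMSO and 2193, 2127 and 2241 in trametinib, where every trametinib library was above every DMSO library. The mean level in trametinib was thus 55.2% of DMSO in input and 140% in footprints.

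The log2 change of *CSNK1A1* was -0.85 in input (SE 0.234, edgeR adjusted p = 0.0146) and 0.48 in footprints (SE 0.141, adjusted p = 0.0200). Without DMSO replicate 1 of the assay these changes were -0.62 (adjusted p = 0.0240) and 0.60 (adjusted p = 0.000528). Of the 10663 genes, 2 were called lower in input and higher in footprints (0.0188%), *CSNK1A1* and *PROSER1*, the latter named after its values were seen. The density of *CSNK1A1* was 1.45, 1.79 and 1.69 in DMSO and 3.35, 5.68 and 4.45 in trametinib. The lowest trametinib replicate was above every DMSO replicate, and the gene moved from percentile 77.5 to percentile 98.3 of all densities. Fitted over the 12 libraries, the density rose 2.65-fold (95% interval 1.69 to 4.17, log2 1.41, SE 0.305, adjusted p = 0.0454). It ranked 4 by size of change among the 10 genes called higher in density. In these 10 genes the input change was below 0 except in *SLIT2* (0.27) and *DPP4* (1.64). It ran down to -1.63 in *GTF2A2*, whose footprint change was -0.29. These 3 genes were named after their values were seen.

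In the main fit, which has no block for the dish, the call of *CSNK1A1* in density lay close to the threshold. The size of the change did not move much. With any 1 library left out the log2 change was between 1.18 and 1.60 and the adjusted p between 0.0178 and 0.142, and the call was lost in 9 of the 12 such fits. The call was kept without both libraries of DMSO replicate 1 (1.27, adjusted p = 0.0126). It was lost with size factors by median of ratios (1.34, adjusted p = 0.0551). With a block for each dish the change was 1.41 (SE 0.191, edgeR adjusted p = 0.000467). The likelihood ratio test of DESeq2 gave 1.34 (adjusted p = 0.00371). The call in input was lost without trametinib input replicate 2 (-0.67, adjusted p = 0.0837) or 3 (-0.85, adjusted p = 0.0510), and the call in footprints without any of the 3 trametinib footprint libraries. Reads of its near copy *CSNK1A1L* numbered between 0 and 10 a library.

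**Figure D3:**
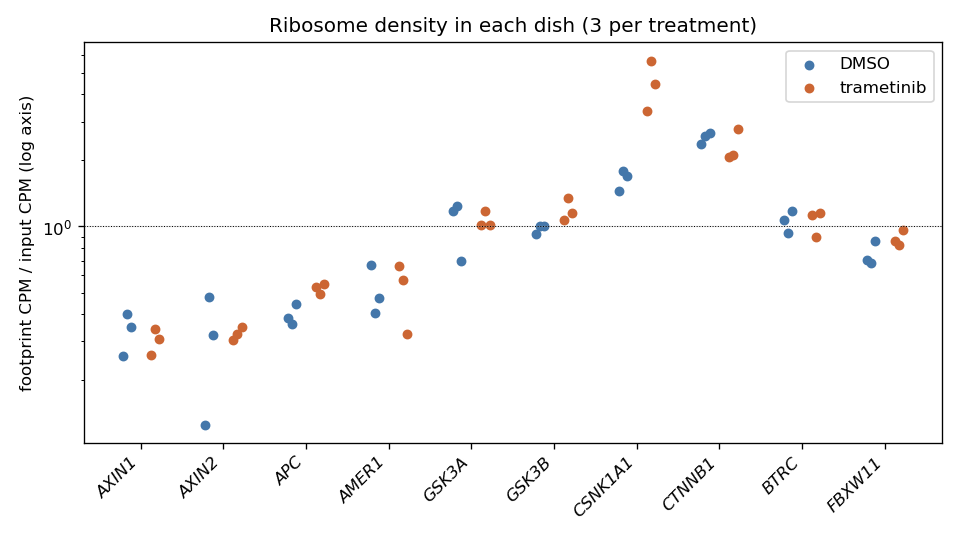
Ribosome density, footprint CPM over input CPM (log axis), of each member in the 3 DMSO and 3 trametinib replicates; the dotted line is a ratio of 1. *CSNK1A1* rises from between 1.45 and 1.79 to between 3.35 and 5.68, and the 4 scaffolds lie below the other members in the DMSO replicates.

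*GSK3B*, the better expressed of the GSK3 kinases per length (chr3:119821321-120094994, minus strand), had overlapping input counts, 641, 534 and 492 in DMSO against 671, 538 and 591 in trametinib. Its footprints were 604, 554 and 505 in DMSO and 695, 712 and 663 in trametinib, without overlap. The footprint change was 0.32 (SE 0.110, edgeR adjusted p = 0.0403), and the call was lost in 5 of 6 fits that left out 1 footprint library (all but that without DMSO replicate 1), with an adjusted p of up to 0.136. Without DMSO replicate 1 the footprint change was 0.39, and the input change of 0.12 was 0.24. Its density ran from 0.926 to 1.01 in DMSO and from 1.07 to 1.35 in trametinib, with a change of 0.27 (adjusted p = 0.762).

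*GSK3A* (chr19:42226225-42242625, minus strand) had input counts of 235, 240 and 318 in DMSO and 248, 214 and 262 in trametinib, and footprints of 282, 306 and 227 against 243, 248 and 261. The groups overlapped in both assays, and the log2 change was -0.12 in input (95% interval -0.53 to 0.28) and -0.11 in footprints (-0.42 to 0.19), the latter turning to 0.064 when scaled to library totals. Without DMSO replicate 1 they were -0.20 and -0.068. It shares 479 and 93 coding bases with 2 other annotated protein-coding genes of its strand, so its counts are uncertain.

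*CTNNB1*, which encodes β-catenin (chr3:41194741-41260096, plus strand), had input counts of 2908, 3740 and 3168 in DMSO and 4529, 4297 and 3728 in trametinib. The lowest trametinib library was just below the highest DMSO library, and the change of 0.36 missed the threshold (SE 0.146, edgeR adjusted p = 0.0753). It was 0.47 with an adjusted p of 0.0449 without DMSO input replicate 2, 0.29 with an adjusted p of 0.132 without DMSO input replicate 1, and 0.37 with an adjusted p of 0.0424 with the replicate number as a block. Footprints of 7046, 9964 and 8588 in DMSO and 9066, 8943 and 10039 in trametinib overlapped, with a change of 0.13 (95% interval -0.20 to 0.47) that was 0.020 without DMSO footprints replicate 1.

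Neither substrate receptor passed the test. *BTRC* (chr10:101354033-101557321, plus strand) had 356, 372 and 325 normalized counts in DMSO input and 380, 463 and 406 in trametinib input, and 389, 358 and 390 against 416, 407 and 455 in footprints. The groups did not overlap in either assay, but the changes of 0.25 and 0.17 did not pass the test (edgeR adjusted p = 0.250 and 0.193). *FBXW11* (chr5:171861549-172006873, minus strand) had 753, 778 and 642 in DMSO input against 705, 715 and 712 in trametinib input, and 541, 548 and 566 against 586, 582 and 666 in footprints, where the groups did not overlap and the change of 0.15 had an adjusted p of 0.253. Scaled to library totals instead, both were called higher in footprints (0.35 and 0.33, adjusted p = 0.0165 and 0.0245), under a scaling that raised the median change of all genes by 0.178.

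In all, the groups did not overlap for 3 members in input, 7 in footprints and 3 in density, against 46.6%, 59.6% and 18.3% of all genes. In footprints 6 of these were higher (*AXIN2*, *APC*, *GSK3B*, *CSNK1A1*, *BTRC* and *FBXW11*) and *AXIN1* was lower.

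**Figure D4:**
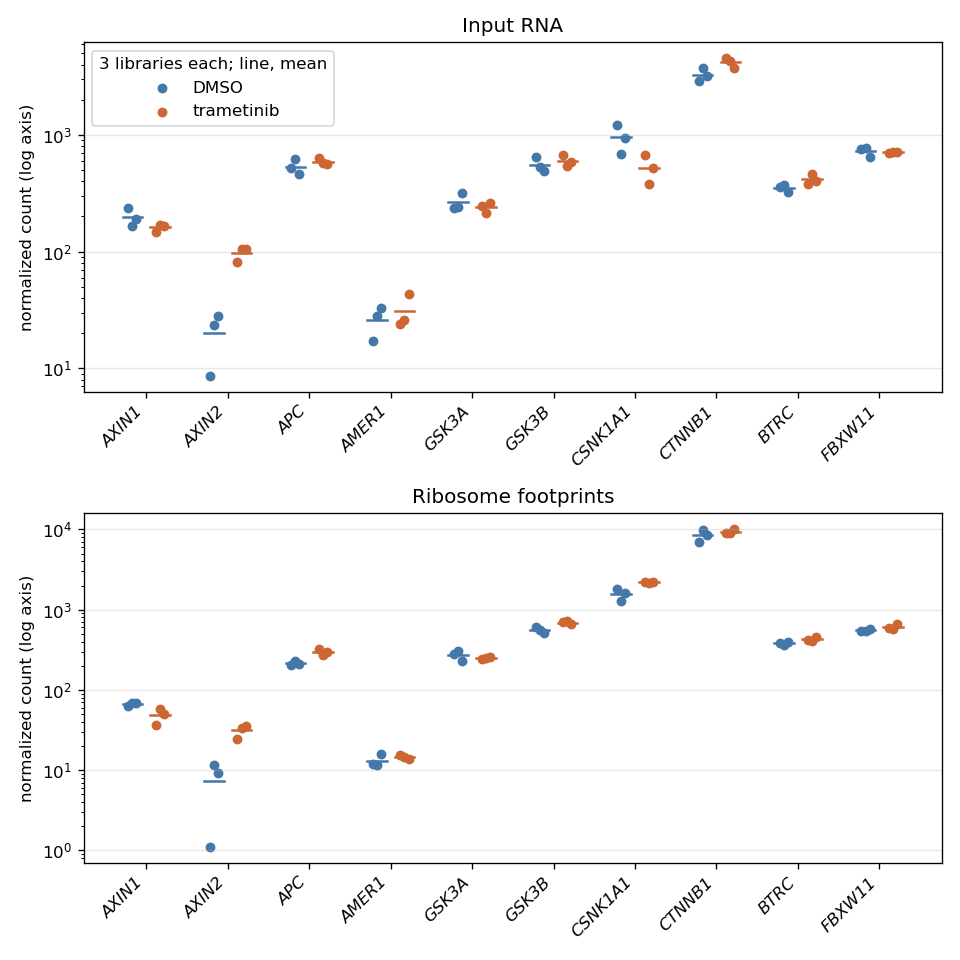
Normalized counts (log axis) of each member in the 3 DMSO and 3 trametinib libraries, input above and footprints below; the short lines are means. In footprints *AXIN1* is the member whose trametinib libraries (36.9 to 57.1) all lie below its DMSO libraries (62.6 to 67.8).

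*AXIN1* was then compared with each partner within a library, as the log2 ratio of their counts. In footprints this ratio was lower in every trametinib than in every DMSO library for 8 of 9 partners, all but *GSK3A*. The same held against 46.4% of all genes. All 9 ratios share the same *AXIN1* counts, so the partners are not separate observations. The fall ran from -3.13 against *AXIN2* (SE 1.05) through -0.98 against *CSNK1A1* (SE 0.267) and -0.96 against *APC* (SE 0.254) to -0.63 against *CTNNB1* (SE 0.219), each with an exact permutation p of 0.1 and an adjusted p of 0.113 over 9 partners, a design in which no p under 0.1 is possible. In input the ratio was lower without overlap for 2 of 9 partners, *AXIN2* and *BTRC*, against 31.7% of all genes. Without DMSO input replicate 2 it was 6 of 9. Against *CSNK1A1* the input ratio of *AXIN1* was 0.58 higher in trametinib, with overlapping groups (exact permutation p = 0.2).

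To compare levels between genes, CPM was divided by the length of coding sequence in kilobases. In DMSO input the order was *CTNNB1* (232 CPM per kilobase), *CSNK1A1* (130), *FBXW11* (72.3), *GSK3B* (64.5), *BTRC* (32.6), *GSK3A* (30.1), *AXIN1* (12.8), *APC* (10.3), *AXIN2* (1.36) and *AMER1* (1.30). The libraries of *FBXW11* and *GSK3B*, of *BTRC* and *GSK3A*, of *AXIN1* and *APC* and of *AXIN2* and *AMER1* overlapped, so these neighbours were not ordered beyond their spread. The 4 scaffolds were thus the 4 lowest members, with the substrate *CTNNB1* highest.

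The order of footprints was similar but spread further. In DMSO *CTNNB1* stood at 536 CPM per kilobase, *CSNK1A1* at 191 and *GSK3B* at 57.2, while *AXIN1* stood at 3.82, *APC* at 3.68, *AMER1* at 0.575 and *AXIN2* at 0.436. The step from *GSK3A* down to *AXIN1* was 7.16-fold in footprints and 2.35-fold in input. *AXIN1* and *APC* overlapped in both assays. In trametinib *APC* stood above *AXIN1* in footprints (5.77 against 3.13, libraries separate) and overlapped with it in input (11.3 against 10.5). *AXIN2* rose to 6.52 in input and 2.08 in footprints, and still lay below *AXIN1* in every library.

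Ribosome density, which sets the footprint level over the input level, restates this division. In DMSO the scaffolds stood low among all genes, *AXIN1* at percentile 7.06, *AXIN2* at 8.54, *APC* at 10.6 and *AMER1* at 16.4. *FBXW11* stood at 33.5, *GSK3B* at 48.6, *GSK3A* at 50.2, *BTRC* at 53.2, *CSNK1A1* at 77.5 and *CTNNB1* at 93.8. *AXIN2* and *AMER1* rest on few input counts here. The scaffolds also have the longest coding sequences of the members, from 2529 bases (*AXIN2*) to 8748 (*APC*), the next being *CTNNB1* at 2379. *CTNNB1*, only a little shorter than *AXIN2*, stood at percentile 93.8 against 8.54. The parts of scaffold role and coding length in these orders were not tested.

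The genes whose 12 libraries, centred within each assay, followed *AXIN1* most closely were *FADS2* (Pearson's r 0.867), *LMO7* (0.842) and *IRAK1* (0.832), and those nearest to *AXIN2* were *CPOX* (0.983), *RNPEP* (0.979) and *ARHGEF40* (0.979). No member followed *AXIN1* closely, the highest being *GSK3A* at 0.106. The most inverse to *AXIN1* were *APC* (-0.787), *AXIN2* (-0.603) and *CTNNB1* (-0.592). The member that followed *AXIN2* most closely was *CTNNB1* at 0.854. The libraries share treatment and depth, so these values are a description.

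Genes that act on or around the complex were read from lists. The counts stand beside 15.4% of all genes called higher and 16.8% called lower in input, and 23.9% higher and 25.6% lower in footprints. Of 10 regulators of AXIN turnover, 4 fell in input and 0 rose: the E3 ligases *SIAH1* (log2 -1.23, SE 0.347, adjusted p = 0.0152), *SIAH2* (-1.13, SE 0.171, adjusted p = 0.000309) and *SMURF2* (-1.07, SE 0.148, adjusted p = 0.000157), and the deubiquitinase *USP7* (-0.70, adjusted p = 0.00467). In footprints 4 fell (*SIAH2*, *SMURF2*, *USP7* and *TRIM65*) and 2 rose. Those 2 were *TNKS2*, a tankyrase that marks AXIN for degradation (0.40, SE 0.122, adjusted p = 0.0235), and *RNF146*, the ligase that reads this mark (0.47, SE 0.149, adjusted p = 0.0286). Over the 10 regulators the median log2 change was -0.17 (input) and -0.34 (footprints).

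Of 8 tested genes of the receptor-proximal signalosome, 2 rose in input and 3 in footprints, and 0 fell. The Wnt co-receptor *LRP5* rose in both (0.56 in input, adjusted p = 0.0294, and 0.88 in footprints, adjusted p = 0.000205), the GSK3-binding *FRAT2* in input (1.67, adjusted p = 0.00677, with 3 to 8 counts in DMSO and 12 to 21 in trametinib, so that it passed the filter through trametinib alone), and *LRP6* and *DVL3* in footprints (0.44 and 0.36). Of 7 tested nuclear partners of β-catenin, 0 were called in input by edgeR, DESeq2 or limma (0 at an unadjusted p under 0.05). In footprints 2 rose, the transcription factors *TCF7L1* (0.78) and *TCF7L2* (1.00), and DESeq2 also called *BCL9*. *TCF7L1* had only 10 to 14 counts in DMSO input and 5 to 15 in trametinib input.

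Of 4 other CK1 kinases tested, 0 were called in input by edgeR and DESeq2 (1 by limma, and 1 at an unadjusted p under 0.05) and 2 rose in footprints, *CSNK1D* (0.34) and *CSNK1G1* (0.41). The 3 core subunits of the ligase held 1 gene that fell, *RBX1* (-0.57 in input and -0.38 in footprints). Of 9 subunits of the phosphatase PP2A, *PPP2R5A* rose (0.50 in input, adjusted p = 0.0444 by edgeR but 0.0543 by DESeq2, and 0.98 in footprints) and the catalytic *PPP2CA* and *PPP2CB* fell in footprints (-0.44 and -0.32). The scaffold subunit *PPP2R1A* was called in footprints by DESeq2 and limma alone (0.36 in both, edgeR adjusted p = 0.0553). *JUP*, the β-catenin homologue plakoglobin, rose by a similar size in input (0.77) and footprints (0.75), and was 1 of 2 tested paralogs.

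Of 9 tested genes listed as β-catenin targets besides *AXIN2*, 1 rose and 2 fell in input. *NOTUM*, a secreted Wnt inhibitor, rose (0.94, SE 0.234, adjusted p = 0.00818), whereas *CCND1* (-2.02, SE 0.172) and *MYC* (-0.74, SE 0.160), which are growth genes also driven by ERK, fell. In footprints 2 rose and 2 fell: *NOTUM* (1.36) and *DKK1*, another Wnt inhibitor (0.45, SE 0.120, adjusted p = 0.0133), rose, and *CCND1* (-2.33) and *MYC* (-1.08) fell. The median of these 9 genes was -0.15 in input and 0.23 in footprints. In density, 0 of the 51 tested genes of these lists were called by edgeR, DESeq2 or limma, and 7 (13.7%) had an unadjusted p under 0.05, beside 8.81% of all genes. DESeq2 gave an adjusted p in density to only 9215 of the 10663 genes.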

How the data were processed

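Ribo-seq libraries of HCT116 cells were analysed from the table deposited by the authors. Reads were depleted of rRNA and tRNA sequences with Bowtie 1.2.2 (per the submitters' processing notes), mapped to Gencode V38 transcripts, and those falling in annotated reading frames were summed per gene. The deposited values are raw counts and a normalized signal, counts over a size factor for each library, that was recomputed from the counts for 12 of 12 libraries. Columns with the authors' fold changes, adjusted p-values (DESeq2 1.46.0) and gene marks were not used, and 0 columns of library values were left unused.

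Counts were tested with edgeR 4.0.16 (R 4.3.3), quasi-likelihood F-test, TMM scaling and Benjamini-Hochberg adjustment. Genes needed at least 10 counts in at least 3 of 6 input libraries. Ribosome density was the interaction of assay and treatment over 12 libraries. The tests were tried on simulated counts. Coding lengths came from GENCODE 44 (GRCh38). Shares carry Wilson intervals (95%). Groups and replicate numbers followed the labels. Members and lists were chosen with earlier results of these data known; beyond the members, up to 3 genes of a list with the largest called input change were to be named, and others named from the lists were chosen after their values were seen. Alternatives were other scalings and filters, DESeq2 1.42.0, limma 3.58.1 (prior count 2), a replicate block and leaving out libraries.

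Deviations of same-numbered DMSO and trametinib libraries correlated at 0.068, 0.0484 and 0.334 in input and at 0.117, 0.133 and 0.294 in footprints. All were positive but not every pair was over 0.1, so the main fits did not take the numbers as pairs. These values do not show that the replicates were unpaired, and fits with a replicate block are among the alternatives.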

Additional observations from a re-analysis of the deposited data

Results flagged for a closer look

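1 result stood out because the effect of trametinib differed between the assays by a test of the difference itself: *CSNK1A1* changed by 1.41 (log2, SE 0.305, edgeR adjusted p = 0.0454) more in footprints than in input, with the density higher in 3 of 3 trametinib replicates than in any DMSO replicate. Over the alternatives with all libraries the change was between 1.34 and 1.51 and the adjusted p between 0.000467 and 0.0551.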

How the results depend on the processing

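With 1 library left out at a time, *AXIN2* was called higher in every fit of input (1.91 to 2.58) and of footprints (1.60 to 2.58). *CSNK1A1* ranged over -1.07 to -0.62 for input, 0.36 to 0.60 for footprints and 1.18 to 1.60 for density. *AXIN1* ranged over -0.40 to -0.13 for input, -0.61 to -0.30 for footprints and -0.27 to 0.023 for density (-0.33 without both libraries of DMSO replicate 1). Signs also turned, with no call, for *AMER1* (-0.055 to 0.46), *GSK3A* (-0.20 to 0.036) and *FBXW11* (-0.093 to 0.032) for input, and for *AXIN2* (-0.62 to 0.35), *AMER1* (-0.28 to 0.22), *GSK3A* (-0.10 to 0.17) and *BTRC* (-0.11 to 0.041) for density. Members called numbered 1 to 3 in input (1 without trametinib input replicate 2 or 3), 1 to 5 in footprints (1 without trametinib replicate 1, 2 without trametinib replicate 3) and 0 to 1 in density. The partners relative to which *AXIN1* was lower without overlap numbered 2 to 6 in input.

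In density 0 members were called with size factors by median of ratios and with a filter on libraries of either kind, where *CSNK1A1* was at 1.34 and 1.37. Library totals turned *AXIN2* (0.065), *AMER1* (0.054) and *BTRC* (0.097) in density and *GSK3A* in footprints (0.064), and called 6 members in footprints, with 3577 genes higher and 1944 lower against 2545 and 2727. Genes called higher in density numbered 10, but 37 with DESeq2, 27 with library totals, 31 with a replicate block for each dish, 5 with median-of-ratios factors and 6 with the other filter. The DESeq2 number is out of 9215 genes with an adjusted p. The rank of *AXIN1* per length was 7 in DMSO and 8 in trametinib. The causes were not tested.

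With a replicate block, *CTNNB1* passed the threshold in input (0.37, adjusted p = 0.0424), and *CSNK1A1* in density had an adjusted p of 0.00255; the block changed no other call of a member. Leaving out both libraries of DMSO replicate 1 was chosen after seeing the data, where *AMER1* in density was at 0.056, and so were 2 other coding lengths, which left the rank of *AXIN1* at 7. Input counts of 4 to 17 limit *AXIN2* in DMSO and *AMER1*.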
